A study of Mus musculus with 13 samples.

Results

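Stavudine treatment was compared with no treatment in primary mammary tumors of MMTV-HER2/Neu mice. The comparison took 3 primary tumors from stavudine-treated females and 3 from untreated females, 6 of the 13 RNA-seq libraries of the series, chosen by their labels alone. All mice were of the FVB/N-TgN strain that carries MMTV-HER2/neu (line 202Mul/J), and the labels gave the genotype as wild type. In this strain a rat HER2/Neu cDNA is driven by the mouse mammary tumor virus promoter in the breast epithelium, so every tumor in both groups carried the transgene. Treated mice drank non-acidified water holding stavudine at 1 mg/mL, an estimated 200 mg/kg/day, and untreated mice drank the same water without it. The labels gave the start of stavudine as 2 months of age or the time when primary tumors appeared, without saying which held for a given mouse. The study described the primary stavudine tumors as having developed in stavudine-treated mice. The age of each mouse at collection was not given. The other libraries were 5 recurrent tumors that grew under the Hsp90 inhibitor 17-DMAG at 20 mg/kg, 2 of them with stavudine, and 2 mammary glands. The recurrent tumors entered the fit to share its estimate of the spread and gave a second stavudine comparison with no library in common.

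Stavudine is a thymidine analog and a nucleoside reverse transcriptase inhibitor. Thymidine kinases and thymidylate kinase phosphorylate it stepwise in the cell, and the triphosphate ends the DNA chain that a reverse transcriptase is building, including that of the LINE-1 retrotransposon. The same triphosphate can be used by the mitochondrial DNA polymerase Polg, which underlies the known mitochondrial toxicity of this drug class. Reverse-transcribed or mitochondrial DNA in the cytosol can be sensed by cGAS and STING, which induce type I interferon. The comparison therefore asked whether primary HER2 tumors of mice given the drug, without a second treatment, differed in their transcriptome.

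The 6 libraries held 39921388 to 49134339 counts each. All 3 stavudine and all 3 untreated values are given in replicate order as CPM (a gene's counts scaled to a common library total), adjusted by TMM over the 16870 genes that passed a filter on low counts. The epithelial identity of the tissue was evident in both groups. Epcam stood at 1170 to 1321 CPM and Krt8 at 270.5 to 410.2 CPM over the 6 tumors, while Krt19, another luminal keratin, lay between 0.265 and 7.401 CPM. The mean Spearman rho was 0.9752 over the 6 pairs of tumors from the same group and 0.9735 over the 9 pairs from different groups. Untreated tumor 2 stood furthest from the rest: among 12687 genes with a mean of at least 1 on the log2 CPM scale, it was alone at the low end, by at least 1 log2 unit, for 246 genes and alone at the high end for 122. Skeletal muscle genes marked untreated tumor 1 and stavudine tumor 2, in which Acta1 reached 261 and 40.04 CPM against 0.0487 to 0.934 CPM in the others.

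The genes of chromosome 4 moved as a block in untreated tumor 2. Each gene's log2 CPM was set against its median over the 6 tumors, and the median of these deviations was taken over the genes of each chromosome. For the 791 expressed genes of chromosome 4 the median deviation was -0.75 in untreated tumor 2 and -0.21 in untreated tumor 3. It was 0.07 in untreated tumor 1, and 0.07, 0.06 and 0.07 in the stavudine tumors. All 8 stretches of 20 Mb along chromosome 4 lay at or below -0.70 in untreated tumor 2, and these were the only stretches, of 137 checked over the genome, in which any tumor deviated by 0.3 or more. In untreated tumor 3 the first 2 stretches of chromosome 4 lay at 0.04 and 0.10, and the other 6 between -0.25 and -0.20. DNA copy number was not measured, and what produced the block was not tested. Both tumors with the low block were untreated, so chromosome 4 genes had a median log2 fold change of 0.34 for stavudine over untreated, which was 0.17 without untreated tumor 2.

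**Figure D1:**
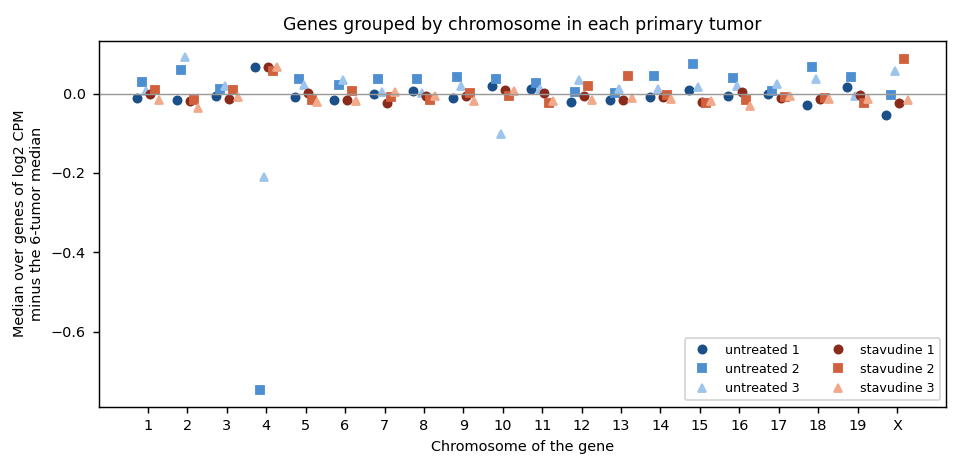
Expressed genes grouped by chromosome (x axis), with the median over genes of log2 CPM minus each gene's 6-tumor median (y axis) for the 3 untreated (blue) and 3 stavudine (red) primary tumors, 1 point per tumor. Chromosome 4 lies at -0.75 in untreated tumor 2 and at -0.21 in untreated tumor 3, while the other chromosomes lie near 0 in all 6 tumors.

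No gene passed an adjusted p of 0.05 for stavudine against untreated in edgeR's quasi-likelihood test, 0% of the 16870 tested, and the smallest adjusted p was 1.00. Unadjusted p fell under 0.05 for 634 genes, or 3.76%, of which 223 (1.32%) were higher and 411 (2.44%) lower under stavudine. The 3 stavudine values lay wholly above or below the 3 untreated values for 1847 genes, or 10.9%. Of these, 771 genes (4.57%) were higher and 1076 (6.38%) lower. The median log2 fold change over all tested genes was -0.03. Chromosome 4 held 6.22% of the tested genes but 20.2% of the 771 that were higher without overlap and 31.8% of the 223 that were higher at an unadjusted p under 0.05. Without untreated tumor 2, the number at an unadjusted p under 0.05 was 239. DESeq2 on the same 11 tumors called 17 genes at an adjusted p under 0.05, or 0.102% of the 16707 that received one, 4 higher and 13 lower. The p-values measure the spread between tumors, estimated over all 11 tumors of the fit. Nothing in the labels says whether tumors of a group came from separate mice or litters.

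Among expressed genes without overlap, the 12 with the smallest p on the higher side had varied known roles, and 6 of them lay on chromosome 4. These 6 were Lurap1l, Zfp933, Chmp5, Exo5, Rpl22 and Tas1r1. Lurap1l, which encodes a leucine-rich adaptor protein, stood at 22.7, 18.3 and 21.3 CPM in the untreated tumors and at 28.8, 32.5 and 30.0 CPM in the stavudine tumors. Its log2 fold change was 0.55 (SE 0.12), and without untreated tumor 2 it was 0.48. It was the one gene of the 6 that DESeq2 called, at an adjusted p of 0.0143. Chmp5, a component of the ESCRT-III membrane scission machinery, stood at 52.7, 31.4 and 50.7 CPM against 66.5, 87.0 and 64.8 CPM. Rpl22, a protein of the large ribosomal subunit, stood at 200.0, 118 and 184 CPM against 245, 295 and 246 CPM. In all 6 of these genes untreated tumor 2 was the lowest tumor, the same tumor that was low across chromosome 4, and the part of the block in their differences was not tested. Their log2 fold changes ran from 0.55 to 0.92 with all tumors and from 0.45 to 0.73 without untreated tumor 2.

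The other 6 of the 12 lay on other chromosomes. Dkkl1, on chr7:45207525-45212165 in RefSeq GRCm38.p6, encodes Dickkopf-like 1, a secreted glycoprotein best known from sperm. It stood at 6.56, 0.980 and 2.72 CPM in the untreated tumors and at 14.1, 37.0 and 23.3 CPM in the stavudine tumors, a log2 fold change of 2.86 (SE 0.65). In edgeR's model across all genes its p was 0.00147 and its adjusted p 1.00. Every stavudine tumor lay above every untreated tumor, and DESeq2 called the gene at an adjusted p of 0.00768. In recurrent tumors Dkkl1 was also higher with stavudine, at 49.6 and 23.02 CPM against 11.05, 15.8 and 11.6 CPM without it. Gna15, the G-protein alpha subunit of blood cells, stood at 2.95, 1.63 and 2.04 CPM against 3.94, 8.87 and 5.62 CPM, with a DESeq2 adjusted p of 0.0350. Cdc14a, a dual-specificity phosphatase, stood at 73.5, 39.6 and 47.1 CPM against 92.4, 199.9 and 96.1 CPM. Its groups were separated by a narrow gap, and stavudine tumor 2 supplied the one value far above the rest. The peptide transporter Slc15a2 had a log2 fold change of 0.51 (SE 0.14) and the unconventional myosin Myo9a one of 0.59 (SE 0.17). The last of the 6 was Cd74, described with the MHC class II genes. The interaction test gave unadjusted p values of 0.000776 for Cdc14a and 0.000651 for Slc15a2, whose log2 fold changes in the recurrent arm were -1.11 and -0.53, and neither passed adjustment.

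On the lower side, most of the 12 genes were set apart by a wide spread among the untreated tumors. Myo7a, an unconventional myosin of sensory hair cells and pigment epithelium, stood at 11.6, 177 and 51.7 CPM against 3.603, 4.20 and 8.36 CPM. The untreated tumors differed among themselves by more than the gap between the groups, and untreated tumor 1 lay close to stavudine tumor 3. Its log2 fold change was -3.89 (SE 0.95) and was -2.54 without untreated tumor 2. Ak1, an adenylate kinase, stood at 40.5, 259 and 53.4 CPM against 26.7, 16.7 and 16.8 CPM. The log2 fold change of Ak1 was -2.55 with all tumors and -1.21 without untreated tumor 2, which held the highest value in both genes. Tesc and Aif1l, which encode calcium-binding proteins, and Gstm2, a glutathione transferase, had the same order among the untreated tumors, with tumor 2 highest and tumor 1 lowest.

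Among the 12 lower genes, Mid1 and H6pd had a narrow spread between the untreated tumors. Mid1, a microtubule-associated ubiquitin ligase on the X chromosome, stood at 36.1, 34.7 and 32.0 CPM against 17.5, 10.96 and 11.2 CPM. The 3 untreated tumors lay close together, and the log2 fold change was -1.37 (SE 0.37) with all tumors and -1.34 without untreated tumor 2. In the recurrent arm the log2 fold change of Mid1 was -1.08 with an unadjusted p of 0.0283. Its values there were 40.6, 34.2 and 12.8 CPM without stavudine and 13.8 and 13.8 CPM with it, so the groups overlapped. H6pd, which supplies NADPH in the endoplasmic reticulum, stood at 77.4, 92.9 and 85.2 CPM against 65.4, 47.2 and 45.9 CPM. H6pd lies on chromosome 4 and was lower under stavudine, against the direction of that chromosome's block. Gpi1, a glycolytic isomerase, stood at 365, 536 and 395 CPM against 270.1, 269 and 338 CPM. Its spread was wider, with untreated tumor 2 highest, and its log2 fold change was -0.56 with all tumors and -0.36 without that tumor. The remaining members, Rhbdl3, Gltp and Rbpms2, had log2 fold changes of -2.64, -0.70 and -1.77, and Rhbdl3 ranged from 1.90 to 10.3 CPM in the untreated tumors. Over the 24 genes named on both sides, the recurrent arm had the same sign for 7 of the 12 higher and 5 of the 12 lower genes.

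**Figure D2:**
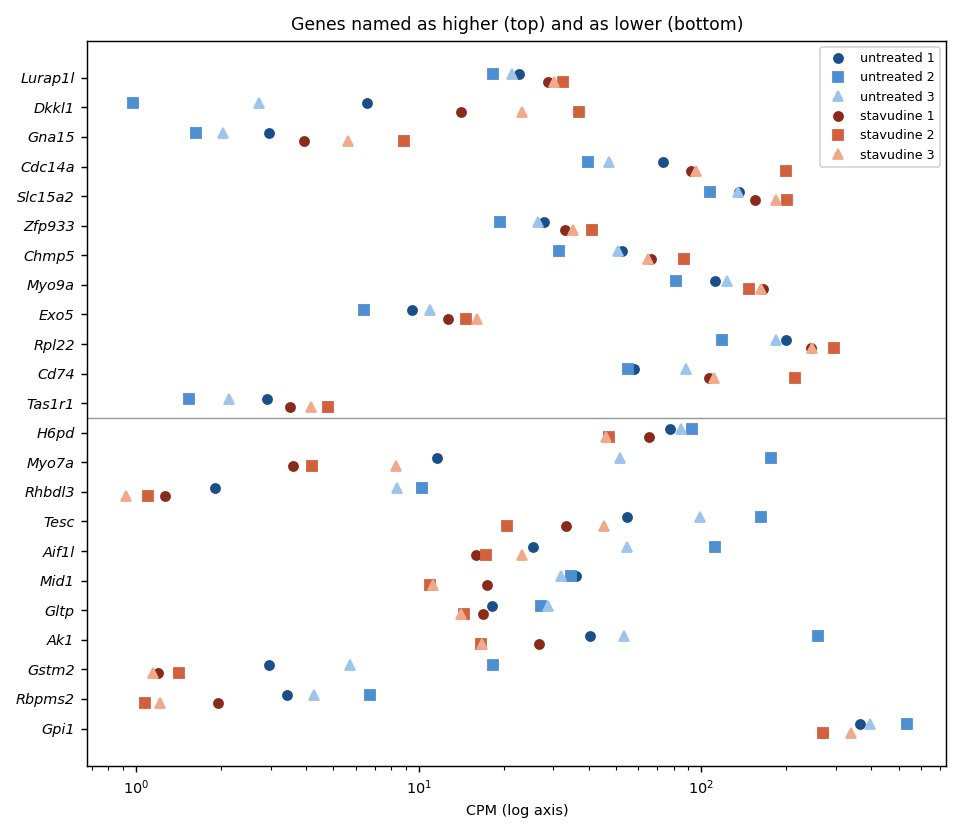
CPM (x axis, log scale) of the 12 genes higher and 11 of the 12 lower under stavudine with the smallest p among expressed genes without overlap, 1 point per primary tumor, blue for untreated and red for stavudine. Untreated tumor 2 (blue squares) is the extreme value for many, as for Ak1 at 259 CPM.

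The 17 genes that DESeq2 called were often rare transcripts, since 9 of them had a mean under 1 on the log2 CPM scale. The groups did not overlap for 14 of the 17. They included 2 long noncoding RNAs. Mira, on chr6:52214491-52215288, fell from 0.654, 5.58 and 5.96 CPM to 0.0974, 0.207 and 0.353 CPM, with a DESeq2 adjusted p of 0.00231. The transcript 4930474M22Rik rose from 0.148, 0.0436 and 0.0424 CPM to 0.706, 2.04 and 0.794 CPM, with a DESeq2 adjusted p of 0.00983. Unc79, which encodes a subunit of the NALCN sodium leak channel, stood at 0.211, 35.2 and 23.004 CPM against 0.0974, 0.0919 and 0.0441 CPM. Untreated tumor 1 was close to the stavudine tumors for Unc79, St8sia1 and Pglyrp1, so it was untreated tumors 2 and 3 that stood high in those genes. St8sia1, the GD3 ganglioside synthase, had 3.02, 63.3 and 63.2 CPM in the untreated tumors and 4.99, 0.368 and 1.68 CPM in the stavudine tumors. Rspo3, an R-spondin that amplifies Wnt signaling, fell from 2.19, 6.30 and 3.20 CPM to 0.146, 0.505 and 0.0882 CPM. Angptl1, an angiopoietin-like secreted protein, fell from 2.32, 3.79 and 1.04 CPM to 0.195, 0.253 and 0.0882 CPM. Muc2, a gel-forming mucin, had tight groups, at 2.97, 2.70 and 2.76 CPM against 1.14, 0.827 and 0.639 CPM. Cnksr2, a signaling scaffold, had no count in any stavudine tumor and 0.232, 3.14 and 0.722 CPM in the untreated tumors. The untreated mean, which untreated tumor 2 dominated, lay 19.7-fold above a floor of 3 counts per library. If both mates of a pair were counted, that floor stands for fewer than 3 fragments and the fold is smaller. Wasf3 was at 0 in stavudine tumors 2 and 3. In the recurrent arm 11 of the 17 genes had the opposite sign. Unc79 there was highest in 1 of the 2 stavudine tumors, at 26.6 CPM against at most 1.52 CPM in the other 4 recurrent tumors.

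The thymidine and thymidylate kinases that act on stavudine, and the polymerase it can poison, had log2 fold changes whose intervals held 0. Tk1, the cytosolic thymidine kinase, stood at 32.6, 23.8 and 28.4 CPM against 26.6, 29.9 and 31.9 CPM, a log2 fold change of 0.06 with a 95% interval from -0.34 to 0.45. Tk2, the mitochondrial thymidine kinase, stood at 29.2, 34.8 and 33.8 CPM against 29.6, 34.5 and 34.6 CPM, with an interval from -0.54 to 0.57. The groups overlapped for both kinases. Dtymk, the thymidylate kinase that adds the second phosphate, stood at 26.7, 25.9 and 24.1 CPM against 27.2, 28.5 and 28.3 CPM, without overlap but with an interval from -0.11 to 0.37. Tyms, which makes thymidylate de novo, had a log2 fold change of 0.25 (SE 0.21). The nucleotide triphosphatase Samhd1 had one of 0.05 with an interval from -0.61 to 0.72. Of the ribonucleotide reductase subunits, Rrm2 stood at 44.6, 42.5 and 47.2 CPM against 36.5, 39.0 and 40.8 CPM, while Rrm2b had a log2 fold change of -0.02. Among 29 tested genes of thymidine salvage and dNTP supply, 13 were higher and 16 lower, and the median log2 fold change was -0.02 beside -0.03 over all genes. The groups did not overlap for 5 of the 29, or 17.2% beside 10.9% of all genes, and Nme4, a mitochondrial nucleoside diphosphate kinase, was the only member at an unadjusted p under 0.05, with a log2 fold change of -0.64 (SE 0.27).

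Genes that maintain mitochondrial DNA lay near the median of all genes. Polg, the catalytic subunit of the mitochondrial DNA polymerase, stood at 53.6, 51.5 and 46.1 CPM in the untreated tumors and at 52.9, 46.2 and 51.8 CPM in the stavudine tumors. Its log2 fold change had a 95% interval from -0.25 to 0.24. The accessory subunit Polg2 had an interval from -0.61 to 0.45 and the helicase Twnk, listed under its older symbol Peo1, one from -0.39 to 0.17. Tfam, which packages and transcribes mitochondrial DNA, stood at 36.0, 33.5 and 29.6 CPM against 39.6, 42.7 and 40.6 CPM. The nuclease Mgme1 stood at 13.8, 14.0 and 13.1 CPM against 14.4, 18.4 and 15.9 CPM. Neither group pair overlapped, yet the log2 fold changes of 0.31 (SE 0.18) for Tfam and 0.25 (SE 0.15) for Mgme1 had intervals that held 0. The single-strand binding protein Ssbp1 had a log2 fold change of 0.14 (SE 0.13). All 30 listed genes were tested, 16 higher and 14 lower, with a median log2 fold change of 0.02 and no member at an unadjusted p under 0.05. Transcripts made from mitochondrial DNA itself were not analysed here.

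**Figure D3:**
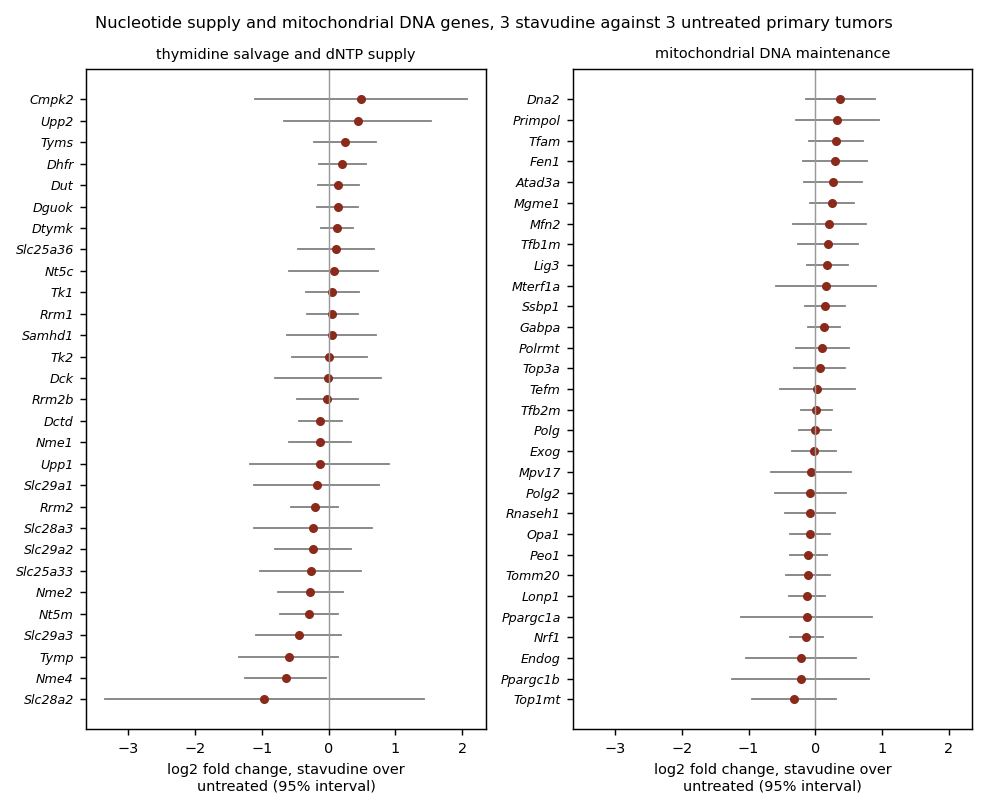
Log2 fold change of stavudine over untreated primary tumors (x axis, points) with 95% intervals (lines) for the 29 tested genes of thymidine salvage and dNTP supply (left) and the 30 of mitochondrial DNA maintenance (right), 3 tumors a group. The intervals hold 0 for every gene except Nme4, which lies at -0.64.

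The stress programs that follow mitochondrial damage were not higher under stavudine. Atf4, the central transcription factor of the integrated stress response, stood at 95.9, 132 and 83.6 CPM against 111, 70.0 and 74.8 CPM. Atf5 and Ddit3 had log2 fold changes of -0.03 (SE 0.26) and -0.12 (SE 0.20). The stress cytokine Gdf15 lay at or below 0.529 CPM in every tumor, and Fgf21 had no count in any of them. Of 29 tested genes of the mitochondrial and integrated stress response, 9 were higher and 20 lower, with a median log2 fold change of -0.15. Of these, 4 were lower without overlap, or 13.8% beside 6.38% of all genes. Unadjusted p fell under 0.05 for 3 members, all lower and all without overlap, while 2.44% of all genes were lower at that p. These were Trib3, a pseudokinase induced by Atf4, at 59.0, 113 and 84.9 CPM against 49.4, 45.7 and 54.4 CPM, the proline synthesis enzyme Pycr1 (log2 fold change -0.62, SE 0.26) and the mitochondrial protease Clpp (-0.29, SE 0.12). No member was at an unadjusted p under 0.05 when any 1 of untreated tumors 2 and 3 and stavudine tumors 1, 2 and 3 was left out. Among 30 p53 targets 7 were higher and 23 lower, but 16 were higher and 14 lower without untreated tumor 2 and also without stavudine tumor 1. Cdkn1a, the p21 cell cycle inhibitor, ranged from 6.75 to 41.9 CPM in untreated and from 4.26 to 15.5 CPM in stavudine tumors. The death receptor gene Fas was the p53 target with an unadjusted p under 0.05, at 5.86, 3.09 and 4.05 CPM against 6.65, 10.0 and 8.201 CPM. The oxidative stress gene Nqo1 and the drug efflux pumps Abcb1a and Abcb1b had log2 fold changes of 0.73 (SE 0.67), -0.02 (SE 0.48) and -0.43 (SE 0.57), and that of Nqo1 was 0.27 without untreated tumor 2.

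Cytosolic nucleic acid sensors and retroelement silencing genes were about as often higher as lower. cGAS, listed as Mb21d1, stood at 7.21, 5.64 and 6.58 CPM against 6.48, 7.14 and 8.99 CPM. STING, listed as Tmem173, stood at 19.9, 31.6 and 14.2 CPM against 19.2, 17.8 and 18.5 CPM. The stavudine tumors lay inside the range of the untreated tumors for STING. The DNA exonuclease Trex1 and the RNase H2 subunit Rnaseh2a, both of which limit sensing of self nucleic acid, had log2 fold changes of -0.02 (SE 0.25) and -0.18 (SE 0.20). Of 27 sensing genes 14 were higher and 13 lower, with a median of 0.01. Of 32 genes for retroelement silencing and restriction 17 were higher and 15 lower, with a median of 0.01. The chromatin remodeler Hells was the member of that list with an unadjusted p under 0.05, at 27.7, 19.7 and 23.3 CPM against 36.5, 33.9 and 29.7 CPM. In all, 2 members were higher and 5 lower without overlap (15.6% of the list lower, beside 6.38% of all genes), and the lower ones included the DNA methyltransferase Dnmt3a and the histone methyltransferase Setdb1, with log2 fold changes of -0.34 (SE 0.20) and -0.15 (SE 0.09). Retroelement transcripts themselves were not analysed here.

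Type I interferon genes varied more between tumors of a group than between the groups. Many such genes carry an interferon-stimulated response element, which binds the ISGF3 complex. The core of this element, searched as TTTC, any 2 bases and TTTC on either strand, was found in 14 of the 25 tested interferon genes that had a RefSeq promoter (GRCm38.p6), and in 3.44% of all 32851 promoters. A promoter here means 250 bases before to 50 after a gene's start. The windows of 3 genes whose values follow are printed, 5′ to 3′ along the gene's strand, with every match in capitals. Isg15 is at chr4:156200849-156200958 on the minus strand, Ifit1 at chr19:34640749-34640858 and Ifit3 at chr19:34583318-34583427, both on the plus strand.
Isg15: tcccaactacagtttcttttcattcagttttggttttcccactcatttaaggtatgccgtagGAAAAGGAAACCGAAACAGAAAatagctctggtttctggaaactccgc
Ifit1: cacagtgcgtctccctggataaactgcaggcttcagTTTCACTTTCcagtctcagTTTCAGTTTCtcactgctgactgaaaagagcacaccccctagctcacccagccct
Ifit3: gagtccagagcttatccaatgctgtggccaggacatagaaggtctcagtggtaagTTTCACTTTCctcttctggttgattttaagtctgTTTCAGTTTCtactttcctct
The letters describe the window and do not show that a factor was bound. Isg15, a ubiquitin-like protein, stood at 7.85, 1.503 and 6.73 CPM in the untreated tumors and at 6.50, 3.58 and 10.0 CPM in the stavudine tumors. Ifit1, an RNA-binding antiviral protein, stood at 25.9, 5.84 and 44.5 CPM against 28.4, 15.8 and 43.9 CPM, and Ifit3 at 8.08, 2.66 and 18.97 CPM against 9.23, 4.64 and 20.7 CPM. Untreated tumor 2 and stavudine tumor 2 were the lowest of their groups for all 3 genes, and Isg15 lies on chromosome 4, which was low in untreated tumor 2. Of 34 tested interferon genes 30 were higher and 4 lower, with a median log2 fold change of 0.21, and none was without overlap. That direction rested on single tumors: without untreated tumor 2 the list had 4 members higher and 30 lower, with a median of -0.11, and without stavudine tumor 3 it had 9 higher and 25 lower, with a median of -0.10. Cxcl10, a T cell chemokine, was the one member at an unadjusted p under 0.05, at 0.464, 0.131 and 0.340 CPM against 0.414, 0.620 and 2.01 CPM.

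MHC class I genes followed the same order of tumors. H2-K1, a class I heavy chain, stood at 912, 180.2 and 943 CPM against 1062, 516 and 1198 CPM, and B2m, the light chain, at 871, 183 and 1137 CPM against 1045, 662 and 1167 CPM. Nlrc5, which activates class I transcription, stood at 70.5, 12.2 and 80.7 CPM against 71.7, 34.0 and 78.6 CPM. In all 3 genes tumor 2 was the lowest of each group. Of 14 tested genes of class I and peptide loading 12 were higher and 2 lower, none at an unadjusted p under 0.05 and none without overlap. Without untreated tumor 2 the family had 6 higher and 8 lower, with a median of -0.03. A tumor replicate number was taken only as a name here.

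Of 10 tested MHC class II genes, 4 were higher under stavudine without overlap, beside 4.57% of all genes, and no member passed adjustment. These genes present extracellular peptides to CD4+ T cells on dendritic cells, macrophages and B cells, and their master regulator Ciita works through proteins bound at the conserved S-X-Y promoter module. The Y box holds the letters GATTGG, which include a reversed CCAAT box. They were found, on either strand, in all 7 tested class II genes that had a RefSeq promoter, and in 16.1% of all promoters. The windows of 4 genes are printed, to set chains that were higher (H2-Aa and H2-Eb1) beside chains whose groups overlapped widely (H2-DMb1 and H2-Ob), with matches in capitals. All lie on chromosome 17 and follow in the order printed, at chr17:34287854-34287963 on the minus strand and, on the plus strand, chr17:34305727-34305836, chr17:34153051-34153160 and chr17:34238765-34238874.
H2-Aa: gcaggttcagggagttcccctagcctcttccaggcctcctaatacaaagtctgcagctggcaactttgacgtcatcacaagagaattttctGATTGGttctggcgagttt
H2-Eb1: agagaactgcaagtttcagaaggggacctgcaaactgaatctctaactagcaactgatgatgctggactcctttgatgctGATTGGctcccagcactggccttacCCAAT
H2-DMb1: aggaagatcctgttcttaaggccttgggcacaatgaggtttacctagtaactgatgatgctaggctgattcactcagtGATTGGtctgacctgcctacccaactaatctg
H2-Ob: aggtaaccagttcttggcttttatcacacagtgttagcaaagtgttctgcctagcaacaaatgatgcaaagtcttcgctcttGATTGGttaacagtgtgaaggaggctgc
The letters were present in both kinds of gene, and the capitals that end the H2-Eb1 window belong to a match on the other strand that the window cuts short. Cd74, the invariant chain that escorts class II molecules, stood at 57.7, 55.1 and 88.6 CPM in the untreated tumors and at 107, 215 and 111 CPM in the stavudine tumors, a log2 fold change of 1.10 (SE 0.33). In edgeR's model across all genes its p was 0.00846 and its adjusted p 1.00. H2-Ab1 stood at 19.3, 15.2 and 26.5 CPM against 31.2, 62.1 and 36.6 CPM, and H2-Aa at 30.3, 25.9 and 55.2 CPM against 58.4, 126 and 53.7 CPM. Stavudine tumor 2 was the highest tumor for each of these chains, and only H2-Aa overlapped, by 1 pair of tumors. H2-Eb1 was a minor transcript at 0.844, 0.806 and 0.700 CPM against 1.05, 1.98 and 1.10 CPM. Ciita itself stood at 12.6, 8.76 and 12.8 CPM against 14.2, 13.8 and 16.0 CPM, a log2 fold change of 0.37 (SE 0.21). The peptide-exchange chains H2-DMa, H2-DMb1 and H2-DMb2 had log2 fold changes of 0.18, 0.11 and 0.02, and H2-Oa and H2-Ob, which restrain that exchange, had 0.74 and 0.28. The log2 fold change was positive for all 10 with all tumors and for 8 of 10 without stavudine tumor 2, the median being 0.55 with all tumors, 0.32 without untreated tumor 2 and 0.34 without stavudine tumor 2. The class II genes were grouped after their values had been seen. In the recurrent arm the log2 fold changes were -0.05 for Cd74, -0.12 for H2-Ab1 and -0.43 for H2-Aa.

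**Figure D4:**
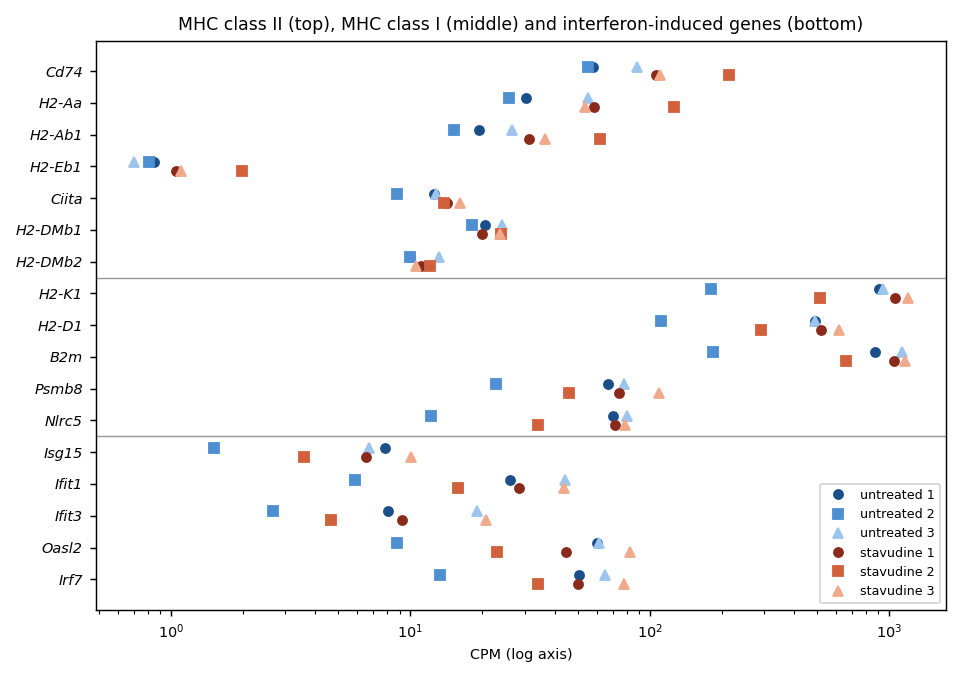
CPM (x axis, log scale) of MHC class II genes (top), MHC class I genes (middle) and interferon-induced genes (bottom) in the 3 untreated (blue) and 3 stavudine (red) primary tumors, 1 point per tumor. Cd74 lies at 106.7 to 214.6 CPM under stavudine and at 55.1 to 88.6 CPM without it, while tumor 2 of each group is the lowest of its group for H2-K1, B2m and Ifit1.

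Most of the macrophage list lay on the other side from the class II genes that some macrophages carry. Cd74 belongs to both, and it had the highest log2 fold change of the macrophage list, at 1.10. In bulk tissue, fewer cells of a type and less RNA per cell cannot be told apart. Of 25 tested macrophage genes 2 were higher and 23 lower, with a median log2 fold change of -0.40, and 9 were lower without overlap, or 36.0% of the list beside 6.38% of all genes. Leaving out any 1 of the 6 tumors left 21 to 23 members lower. The mean log2 CPM over the list was 3.68, 3.73 and 3.78 in the untreated tumors and 3.22, 3.43 and 3.08 in the stavudine tumors. Cd163, a hemoglobin scavenger receptor, stood at 10.2, 19.2 and 10.2 CPM against 3.80, 6.64 and 2.29 CPM, with an unadjusted p of 0.0395. Gpnmb, a lysosomal glycoprotein of foamy macrophages, stood at 1.86, 2.66 and 9.02 CPM against 0.390, 1.13 and 0.154 CPM, with an unadjusted p of 0.0206. Lyz2, Mertk, Apoe and Trem2 were also without overlap, with log2 fold changes of -0.71, -0.52, -0.36 and -0.47. The defining receptors were closer to 0: Csf1r, the colony-stimulating factor receptor, stood at 53.1, 41.6 and 39.6 CPM against 43.7, 52.3 and 37.9 CPM, and Adgre1, which encodes F4/80, at 14.0, 11.1 and 14.4 CPM against 10.8, 11.3 and 12.1 CPM. The complement genes C1qa, C1qb and C1qc had log2 fold changes of -0.13 to -0.17. Cd163 and Gpnmb were not lower in the recurrent arm, with log2 fold changes of 2.29 and 1.48.

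Stromal and vascular lists were lower too, with no member at an unadjusted p under 0.05. Of 30 mesenchymal and fibroblast genes 28 were lower, with a median log2 fold change of -0.58. Of these, 3 were without overlap, or 10% of the list beside 6.38% of all genes. The collagen Col1a1 stood at 215, 279.7 and 105 CPM against 145, 91.3 and 94.8 CPM. The proteoglycan genes Dcn and Lum were lowest in stavudine tumor 3, at 0.265 CPM and 0. Of 25 endothelial genes 24 were lower, with a median of -0.39. Without overlap 5 were lower and 1 higher, or 20% and 4% of the list beside 6.38% and 4.57% of all genes. Kdr, the receptor for VEGF, stood at 36.6, 39.2 and 37.3 CPM against 29.9, 25.1 and 29.1 CPM, and Flt4, its lymphatic relative, at 10.5, 10.9 and 10.0 CPM against 7.01, 4.87 and 7.21 CPM. Both were without overlap. Prox1, the lymphatic transcription factor, was the member on the higher side, at 8.96, 0.871 and 5.69 CPM against 11.7, 24.5 and 10.5 CPM. Without untreated tumor 1, in which the muscle and adipocyte lists had their highest mean log2 CPM, 6 endothelial genes were higher and 19 lower, and the mesenchymal median was -0.32. The adipocyte list ranged from a mean log2 CPM of -0.13 in stavudine tumor 3 to 3.88 in untreated tumor 1, and the skeletal muscle list from -1.66 to 5.17. The part of tissue composition in the stromal difference was not tested.

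Lymphoid lists overlapped between the groups in their mean level. Ptprc, the pan-leukocyte antigen CD45, stood at 20.5, 19.3 and 22.8 CPM against 18.99, 26.8 and 25.4 CPM. The pan-leukocyte list had 11 members higher and 14 lower, and the T cell list 8 higher and 14 lower. Natural killer genes had 13 of 16 higher with a median of 0.29, and B and plasma cell genes 12 of 14 lower with a median of -0.31, with no member of either list without overlap. Without untreated tumor 2 these medians were 0.18 and -0.08, and without untreated tumor 3 that of natural killer genes was 0.74. Mast cell genes had a median of -0.17 that ran from -1.12 without stavudine tumor 1 to 0.33 without stavudine tumor 3, and neutrophil genes one of -0.25 that was 0.08 without untreated tumor 3. The dendritic cell list had 12 of 20 higher and a median of 0.15, and its 3 members at an unadjusted p under 0.05 were the class II genes Cd74, H2-Ab1 and H2-Aa. The dendritic markers Flt3, Xcr1 and Zbtb46, which are not class II genes, had log2 fold changes of -0.32, 0.39 and -0.21.

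HER2 signaling, proliferation and epithelial lineage lists each held members on both sides. Erbb2 reads, which can come from the mouse gene or in part from the rat transgene, stood at 10246, 20386 and 17136 CPM against 9573, 11429 and 9521 CPM. Untreated tumor 1 lay within the stavudine range, and the log2 fold change was -0.65 (SE 0.39, 95% interval from -1.52 to 0.23), or -0.41 without untreated tumor 2. Erbb3, the kinase-impaired partner of HER2, had a log2 fold change of 0.07 (SE 0.30). Of 32 genes of the HER2 family and its output 15 were higher and 17 lower, with a median of -0.00. The feedback phosphatase Dusp4 and the immediate early gene Egr1 were the lower members at an unadjusted p under 0.05, and the ligand Areg was the higher one, at 0.0844, 0 and 0 CPM against 2.17, 0.322 and 0 CPM, with overlapping groups. Egr1 stood at 36.4, 155 and 40.7 CPM against 21.8, 22.8 and 34.5 CPM, with untreated tumor 2 far above the others. Mki67, the proliferation antigen, stood at 448, 368 and 459.9 CPM against 327, 506 and 439.9 CPM, with an interval from -0.63 to 0.62. Of 30 proliferation genes 21 were higher and 9 lower, with a median of 0.15 that ran from 0.03 without untreated tumor 2 to 0.29 without untreated tumor 1. The luminal list had 17 of 26 higher, the basal list 15 of 23 lower, and the milk protein list 9 higher and 10 lower. Muc15, a mucin of the milk fat globule, stood at 267, 249 and 168 CPM against 516, 499 and 434 CPM, without overlap. The milk protein list had 1 member higher and 2 lower without overlap, and a median of -0.32. These are 5.26% and 10.5% of the list, beside 4.57% and 6.38% of all genes.

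Heat shock and NF-kB genes were examined because the study's second drug inhibits Hsp90. Hsp90aa1, the inducible Hsp90, stood at 227, 249.999 and 238 CPM against 312, 289 and 264 CPM, without overlap, a log2 fold change of 0.27 (SE 0.17). Hspa4, another chaperone gene, stood at 351, 252 and 240.4 CPM against 444, 366 and 373 CPM. The small chaperone Hspb1 and the co-chaperone Chordc1 were the 2 members at an unadjusted p under 0.05, with log2 fold changes of 0.41 (SE 0.17) and 0.42 (SE 0.15). The classic stress-induced Hspa1a and Hspa1b had log2 fold changes of -0.10 and 0.07, and over 30 heat shock genes 14 were higher and 16 lower. Of the 30, 3 were higher without overlap, or 10% beside 4.57% of all genes, and none lower. At an unadjusted p under 0.05, 1.32% of all genes were higher. The NF-kB list had 12 members higher and 20 lower, with a median of -0.19 and none at an unadjusted p under 0.05, and the median was -0.08 without untreated tumor 2, -0.11 without untreated tumor 1 and -0.07 without stavudine tumor 2. Nfkbia and Tnfaip3, its feedback inhibitors, had log2 fold changes of 0.12 (SE 0.22) and -0.22 (SE 0.27). The smooth muscle and myoepithelial actin Acta2 had one of -0.09 (SE 0.75).

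The mean log2 CPM over a list separated the groups for 4 of the 26 lists, all lower under stavudine. These were macrophages, by -0.49, and, on a much narrower scale, NF-kB genes (-0.09), thymidine and dNTP genes (-0.07) and HER2 genes (-0.05). Among all tested genes 10.9% were without overlap, 4.57% higher and 6.38% lower, and the median log2 fold change was -0.03. The widest ranges over the 6 tumors were in skeletal muscle, adipocyte, mast cell and interferon genes, at 6.83, 4.01, 2.40 and 2.14, and the groups overlapped in each of them. Leaving out 1 primary tumor turned the sign of the median log2 fold change for the lists of thymidine and dNTP supply, p53 targets, nucleic acid sensing, retroelement silencing, interferon, heat shock, basal epithelium, milk proteins, adipocytes, skeletal muscle, pan-leukocyte, T cell, neutrophil, dendritic and mast cell genes, and for the MHC class I family.

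**Figure D5:**
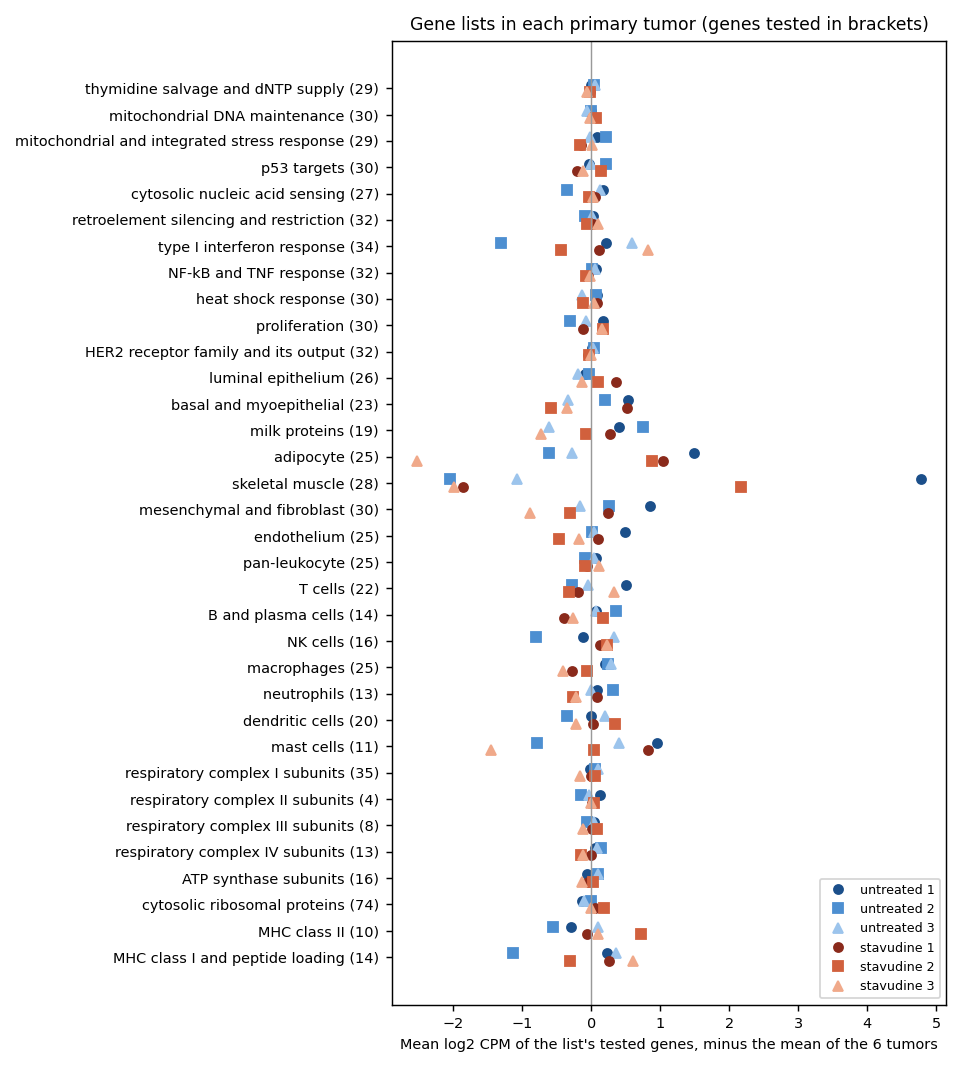
Mean log2 CPM of the tested genes of each list or family, minus the mean of the 6 tumors (x axis), 1 point per primary tumor, blue for untreated and red for stavudine. Macrophage genes are lower in all 3 stavudine tumors, and skeletal muscle genes stand apart in untreated tumor 1 at 5.17 and stavudine tumor 2 at 2.57 before centring.

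The stavudine difference in primary tumors was set beside that in recurrent tumors. The recurrent tumors had regrown under 17-DMAG, so recurrence and exposure to 17-DMAG cannot be told apart in this comparison. No gene passed the interaction test at an adjusted p of 0.05 in edgeR, 0% of 16870, and the smallest adjusted p was 0.435. Unadjusted p fell under 0.05 for 1322 genes, or 7.84%, while DESeq2 called 189. Over the 12687 expressed genes the log2 fold changes of the 2 arms, which share no library, had a Pearson r of -0.13 and a Spearman rho of -0.12 across genes, which are not independent. The sign was the same for 44.9% of those genes. Lurap1l, Dkkl1 and Tas1r1 were the members of the 12 higher genes that were also higher in recurrent tumors at an unadjusted p under 0.05, with log2 fold changes there of 0.77, 1.501 and 0.90. Mid1 was the corresponding member on the lower side, though its recurrent groups overlapped. Of the 12 higher genes, Cdc14a and Slc15a2 were instead lower in recurrent tumors at an unadjusted p under 0.05. Their log2 fold changes there were -1.11 and -0.53. The share of all genes at that p in the recurrent arm is not given here.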

How the data were processed

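The authors made ribosomal RNA-depleted, stranded total RNA libraries, aligned the reads with STAR to the mm10 (GRCm38) mouse genome and deposited featureCounts counts per gene (Subread 1.6.2; base calls by bcl2fastq 2.20). The strand and multimapping settings were not given in the sources used here. Of the counts between 1 and 19, 72.1 to 75.1% were even in the 6 primary tumors, so both mates of a read pair appear to have been counted. Counts that Rn45s took made up 4.70 to 7.86%.

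Genes passing filterByExpr were fitted with edgeR 4.0.16 in R 4.3.3 (TMM, robust quasi-likelihood, 4 tumor groups, 11 tumors, no block), with Benjamini-Hochberg adjustment. The fit was tested on simulated data. DESeq2 1.42.0, limma 3.58.1 voom, other scalings and filters, and fits without single tumors were alternatives. Log2 CPM used a prior count of 2. SE was the log2 fold change over the square root of F, and intervals are 95%.

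Named genes were the 12 with the smallest p in each direction among genes without overlap whose log2 CPM averaged 1 or more, up to 20 called by DESeq2, and 39 genes and 26 lists chosen to fit the drug and the tissue. Other list members were named after their values were seen. The comparison, members and lists were chosen with earlier results of these data known. Of 677 list names, 667 matched the table. Deviations of same-numbered tumors correlated at r = 0.20, -0.01 and 0.00, so the numbers were not taken to pair them. In each primary group, no 2 libraries agreed within sampling noise. Some of the genes that this rule names are not reported here.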

Additional observations from a re-analysis of the deposited data

How the results depend on the processing

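The calls depended on the tool. DESeq2 called 17 genes for stavudine in primary tumors, DESeq2 on the 6 primary tumors alone, added after the data had been seen, called 37, and DESeq2 called 189 for the interaction, where edgeR called 0 each time. The other scalings, filters and sample sets in edgeR, limma voom and counts divided by 2 and rounded (also added after the data had been seen) all gave 0. Leaving out single tumors gave 0 to 0 for stavudine in primary tumors and 0 to 77 for the interaction, the 77 without recurrent DMAG STV replicate 1 and 1 without recurrent DMAG replicate 1. The cause was not tested. The number of genes at an unadjusted p under 0.05 ran from 239 without untreated tumor 2 to 1406 without untreated tumor 1. The fit with the replicate block gave 0 for both, and 0 on the 6 primary tumors alone. The numbers were not taken to pair the tumors.

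Of 73 genes, 19 changed sign when a single tumor was left out. Their log2 fold changes then ran as follows: Tmem173 -0.48 to 0.13, Ddit3 -0.25 to 0.034, Nfkbia -0.0468 to 0.22, Isg15 -0.10 to 0.70, Tk1 -0.0347 to 0.18, Polg2 -0.16 to 0.0307, Hspa1a -0.26 to 0.12, Ifit1 -0.25 to 0.89, Hspa1b -0.0885 to 0.24, Erbb3 -0.034 to 0.20, Samhd1 -0.0899 to 0.20, Acta2 -0.36 to 0.22, Atf5 -0.11 to 0.13, Rrm2b -0.20 to 0.14, Trex1 -0.0997 to 0.0997, Tk2 -0.0609 to 0.10, Abcb1a -0.16 to 0.0786, Polg -0.063 to 0.066, Mki67 -0.14 to 0.17. Under other scalings, filters, tools and sample sets the sign also changed for 6 of these genes. Atf5 gave 0.00621. Rrm2b gave 0.000283, 0.000364, 0.00257, 0.00448, 0.00483, 0.0066, 0.00687, 0.00731 and 0.0222. Trex1 gave 1.43e-05, 0.00013, 0.000248, 0.00199, 0.00273 and 0.00409. Abcb1a gave 0.0028, 0.00287, 0.00368, 0.00472, 0.00558, 0.0067, 0.00687 and 0.0137. Polg gave 0.00499, 0.0101, 0.0117, 0.018, 0.0186, 0.0188, 0.0202, 0.0205, 0.0211 and 0.0214. Mki67 gave 0.00228, 0.00381, 0.00838, 0.00896, 0.0153, 0.016, 0.0162, 0.0167, 0.0206 and 0.0225. With a biological coefficient of variation of 0.402, the spread between tumors limited the precision of most genes. The floor of 3 counts equals about 0.0694 CPM. It covers counting error only and takes counts as independent.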

Other observations

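Ribosomal protein and respiratory chain genes were grouped after their values had been seen. Of 74 tested cytosolic ribosomal protein genes 70 were higher and 4 lower under stavudine, with a median log2 fold change of 0.15, and 20 were higher without overlap, or 27.0% beside 4.57% of all genes. The 5 that lie on chromosome 4, Rpl22 among them, had a median of 0.54 and were all at an unadjusted p under 0.05. Among the other 69, 65 were higher, 15 of them without overlap, with a median of 0.14 and values from -0.27 to 0.35. The median over all 74 ran from 0.0991 to 0.22 when single primary tumors were left out, and was 0.11 in the recurrent arm. Processed pseudogene copies make counts of these genes uncertain.

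Nuclear genes of the respiratory chain were more often lower. Of 35 complex I subunits 27 were lower, of 13 complex IV subunits 10, and of 16 ATP synthase subunits 14, with medians of -0.10, -0.12 and -0.10. Without stavudine tumor 3 these medians were -0.02, -0.06 and -0.06, with 22, 9 and 10 members lower. Atp5e, a subunit of the ATP synthase stalk, had a log2 fold change of -0.31 and was the one member of these 3 groups at an unadjusted p under 0.05. Of 8 complex III subunits 3 were higher and 5 lower, and the 4 complex II subunits were evenly divided.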
